A study of Mus musculus with 12 samples.

Results

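A group of 9 genes that set or mark the switch from B cell to plasma cell was followed in marginal zone B cells taken from mice that were wild-type or Trpm5-/-. The genes were picked by name for their known roles, with earlier results of these data already known. Counts of members set against all genes are thus descriptive only. All 9 were found among the 24346 gene symbols of the deposited tables. Of these, 6 belong to the plasma cell side (Prdm1, Xbp1, Jchain, Mzb1, Ell2 and Sdc1) and 3 to B cell identity (Bach2, Pax5 and Bcl6). Marginal zone B cells are the innate-like B cells at the rim of the splenic white pulp. They were cultured for 4 h without stimulus, with 10 µg/mL of lipopolysaccharide (LPS, a ligand of Toll-like receptor 4) or with 10 µg/mL of an antibody against IgM (anti-IgM, which cross-links the B cell receptor). Both genotypes went through all 3 conditions, so there were 6 groups of 2 libraries, 12 libraries in all. TRPM5 is a calcium-activated cation channel. The sources used here give no age, no sex and no description of the Trpm5 allele. They also leave unsaid whether a group's 2 libraries are from different mice, so a p-value measures only how far these libraries spread, possibly for technical reasons alone.

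Opposed circuits hold a B cell in its state or let it become an antibody-secreting cell. PAX5, BACH2 and BCL6 are transcription factors of the B cell side: PAX5 maintains B cell identity, BACH2 represses the gene for BLIMP1, and BCL6 is the repressor that drives the germinal centre programme. BLIMP1, the product of Prdm1, silences much of the B cell programme, and XBP1 builds the secretory apparatus. The genes Jchain, Mzb1, Ell2 and Sdc1 act in making or mark the antibody-secreting cell. Marginal zone B cells are known for turning into plasma cells faster than follicular B cells.

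The regulatory sequence just before the start of 4 of these genes is shown because they repress, or are repressed by, one another, or differed most between genotypes. Starts were taken from RefSeq (GRCm38.p6, the same coordinates as mm10), and windows were read for 8 of the 9 members. No window was read for Mzb1. Each line is the 250 bases before a RefSeq start, written 5′ to 3′ on the strand of the gene, with matches to short motifs in capitals. The motifs searched on both strands were TGANTCA (bound by BACH2 and AP-1), TTCNNNGAA (BCL6 and STAT), GAAAGT (PRDM1), ACGTGG (XBP1) and TGACGTCA (the cyclic AMP response element), where N is any base. The windows are Prdm1 at chr10:44458749-44458998 (minus strand), Bach2 at chr4:32417185-32417434 (plus strand), Bcl6 at chr16:23988853-23989102 and chr16:23981284-23981533 (minus strand, 2 starts), and Jchain at chr5:88527898-88528147 (minus strand). The starts of Prdm1 and Bach2 in RefSeq lie inside the longer spans that GENCODE M21 gives these genes.
Prdm1: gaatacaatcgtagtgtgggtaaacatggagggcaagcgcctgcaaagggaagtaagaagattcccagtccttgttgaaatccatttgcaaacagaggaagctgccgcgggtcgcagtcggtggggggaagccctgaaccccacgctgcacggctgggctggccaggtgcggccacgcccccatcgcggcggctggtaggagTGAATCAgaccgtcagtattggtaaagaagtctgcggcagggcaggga
Bach2: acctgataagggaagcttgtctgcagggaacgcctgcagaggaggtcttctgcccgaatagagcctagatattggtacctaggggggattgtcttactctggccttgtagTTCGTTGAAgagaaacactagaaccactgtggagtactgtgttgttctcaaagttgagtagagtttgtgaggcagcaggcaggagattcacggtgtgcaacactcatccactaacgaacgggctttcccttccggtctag
Bcl6, distal start: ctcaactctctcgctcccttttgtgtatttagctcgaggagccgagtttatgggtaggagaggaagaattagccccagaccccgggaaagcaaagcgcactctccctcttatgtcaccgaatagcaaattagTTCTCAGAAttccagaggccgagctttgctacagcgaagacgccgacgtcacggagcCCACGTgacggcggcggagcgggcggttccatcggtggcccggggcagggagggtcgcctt
Bcl6, proximal start: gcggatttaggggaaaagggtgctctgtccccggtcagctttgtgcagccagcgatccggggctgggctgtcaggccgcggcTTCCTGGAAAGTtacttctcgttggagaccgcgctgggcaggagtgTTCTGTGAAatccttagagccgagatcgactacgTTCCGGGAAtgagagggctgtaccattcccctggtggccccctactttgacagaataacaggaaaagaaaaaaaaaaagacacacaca
Jchain: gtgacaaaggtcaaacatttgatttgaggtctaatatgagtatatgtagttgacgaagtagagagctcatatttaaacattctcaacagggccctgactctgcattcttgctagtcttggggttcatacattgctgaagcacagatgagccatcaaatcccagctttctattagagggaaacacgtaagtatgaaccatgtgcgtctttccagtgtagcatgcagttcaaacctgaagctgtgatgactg
The Prdm1 window held 1 TGANTCA match, TGAATCA, beginning 48 bases before the start; 6.75% of all 32851 RefSeq windows of this length hold one. The Bach2 window held 1 TTCNNNGAA match, and the 2 Bcl6 windows held 1 and 3, against 7.02% of all windows with any. In the proximal Bcl6 window the first of these, TTCCTGGAA, overlaps a GAAAGT match (12.3% of all windows hold one). The distal Bcl6 window also held ACGTGG on the other strand (6.91% of windows). TGACGTCA (1.55% of windows) was found only in the Ell2 window among the windows of the 8 members read. The Jchain window held none of these motifs and so has no capitals. A match is a description of letters; no binding was measured.

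The libraries summed to between 563461 and 805373 FPKM (fragments per kilobase of transcript, scaled to the mapped total), with 12737 to 13483 symbols above 0. The size of a single fragment, read from scarcely expressed genes, gave about 7.12 to 11.4 fragments for 1 FPKM of a 1 kb transcript. By that estimate, with the longest annotated transcript, the least covered member value was Sdc1 in Trpm5-/- LPS replicate 2 at about 21 fragments (counting error 21.7%), and every other member had at least about 141 fragments in every library. Trpm5 itself was at 0.0196 to 0.434 FPKM in wild-type and at 0 to 0.0303 FPKM in Trpm5-/- libraries; the ranges overlapped, and levels so low check the genotype labels only weakly. B cell markers were abundant (11490 to 20030 FPKM summed over 6 genes). All 10 marginal zone markers reached 1 FPKM in 1 or more libraries, but so did all 6 follicular B cell markers. The plasma cell receptor gene Tnfrsf17 (BCMA) was listed at 0 in 11 libraries and reached 0.327 FPKM in the other.

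Loss of TRPM5 went with higher Jchain RNA in all 3 conditions and with lower Bcl6 RNA under LPS and, by a narrow call, anti-IgM. Xbp1 and Mzb1 were also higher in unstimulated Trpm5-/- cells, and Mzb1 again with anti-IgM. Differences were tested on log2(FPKM + 1) with limma over 10797 genes and called at an adjusted p under 0.05; errors of differences are standard errors. Without stimulus 3 of 9 members were called, all higher, against 6.11% of all genes tested (4.45% higher and 1.66% lower). Under LPS 2 were called, 1 higher and 1 lower, against 3.59% (1.82% and 1.78%). With anti-IgM 3 were called, 2 higher and 1 lower, against 3.83% (1.91% and 1.92%). Averaged over the 3 conditions 5 were called, 3 higher and 2 lower, against 16% of all genes (10.2% and 5.88%). Quantile normalization changed the direction split of all genes from 481 higher and 179 lower to 442 and 277 without stimulus, from 196 and 192 to 117 and 188 under LPS, and from 1097 and 635 to 786 and 730 in the average.

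Jchain (chromosome 5, 88519809 to 88527891, minus strand, mm10) encodes the chain that joins IgM into pentamers and IgA into dimers. In wild-type cells it stood at 20.7 and 25.2 FPKM unstimulated, at 15.6 and 13.3 FPKM after LPS and at 16.4 and 17.3 FPKM after anti-IgM. In Trpm5-/- cells the values were 33.4 and 48.5, 24.4 and 30.0, and 42.0 and 34.8 FPKM in the same order. The knockout libraries lay above the wild-type libraries in each condition, with no overlap. Jchain rose by 0.79 ± 0.18 without stimulus (adjusted p = 0.0307), by 0.87 ± 0.18 with LPS (adjusted p = 0.0263) and by 1.14 ± 0.18 with anti-IgM (adjusted p = 0.00757), and the ratios of means were 1.78, 1.88 and 2.28. Its average difference of 0.93 ± 0.10 (adjusted p = 0.000272) was called under every alternative run. The calls within conditions were less stable. The LPS call was lost when any 1 of the 4 LPS libraries was left out (adjusted p 0.0545 to 0.163), with quantile normalization (0.0638), without the low-value filter (0.0654) or the mean-variance trend (0.0621), and in a fit of those 4 libraries alone (0.131). The unstimulated call was lost without wild-type replicate 1 (0.16) or 2 (0.066) and without Trpm5-/- replicate 2 (0.16), as it was without the filter (0.0652) or the trend (0.0663) and when only the 4 unstimulated libraries were fitted (0.148). The anti-IgM call was lost without wild-type replicate 1 (0.0565) or 2 (0.0539) and without Trpm5-/- replicate 1 (0.0684).

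**Figure D1:**
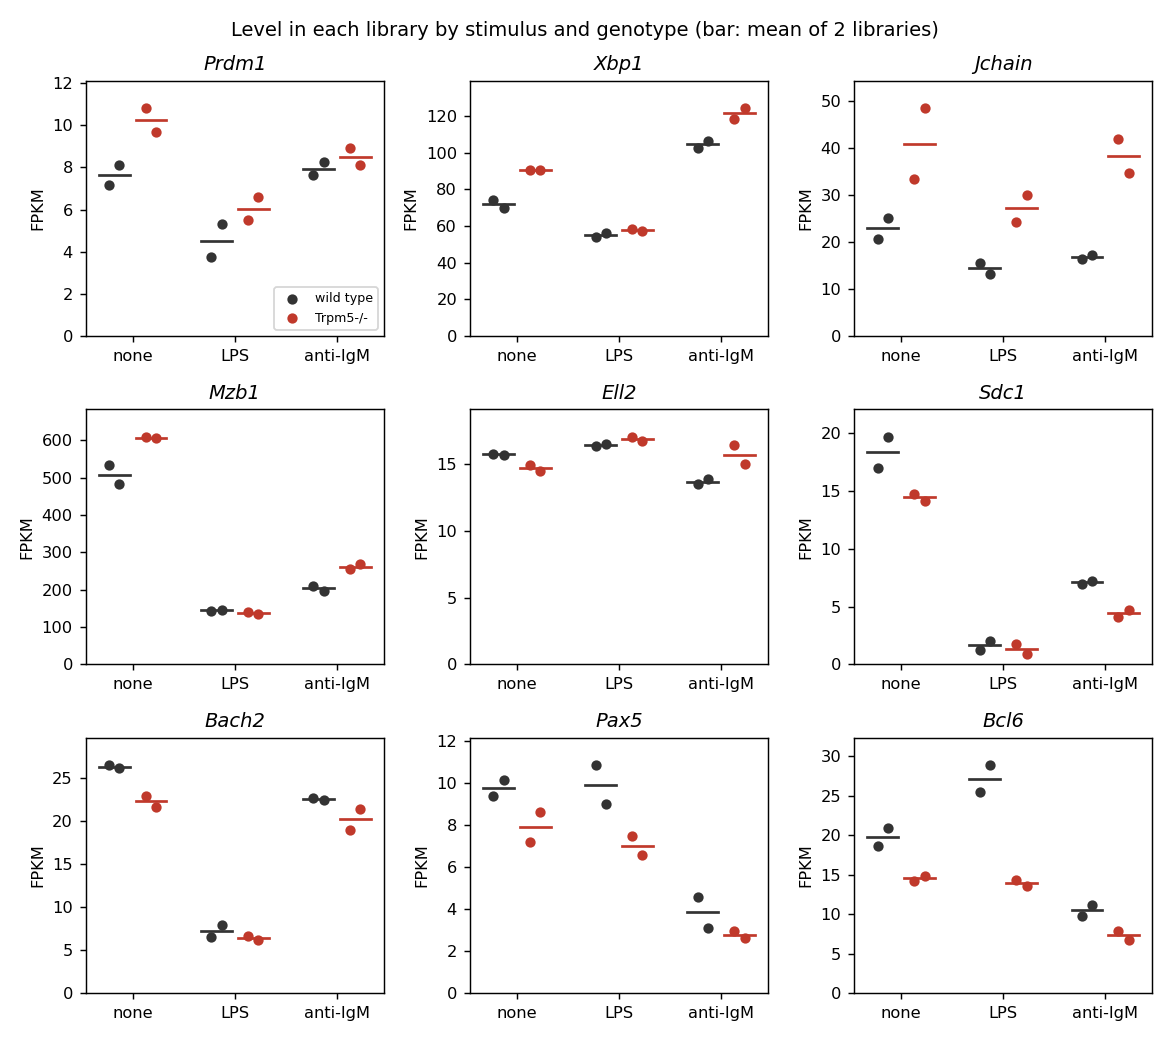
Level of each of the 9 genes in FPKM (y axis, from 0) by stimulus (x axis) and genotype; points are libraries and bars the mean of 2. Jchain is above wild type in every Trpm5-/- group, Bcl6 is below it, and Sdc1 and Bach2 drop with LPS in both genotypes.

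Mzb1 (chromosome 18, 35647267 to 35649367, minus strand), a chaperone of the endoplasmic reticulum that helps assemble and secrete IgM, had the highest level of the group per length of transcript. It stood at 534 and 482 FPKM in unstimulated wild-type and at 610 and 606 FPKM in unstimulated Trpm5-/- cells. With anti-IgM it stood at 211 and 196 against 255 and 269 FPKM, and with LPS at 143 and 147 against 140 and 136 FPKM. Knockout libraries were thus higher without stimulus and with anti-IgM and slightly lower with LPS, without overlap in any. The difference was called without stimulus (0.26 ± 0.06, adjusted p = 0.0381) and with anti-IgM (0.36 ± 0.06, adjusted p = 0.0107) but not with LPS (-0.07 ± 0.06, 95% interval -0.21 to 0.06, adjusted p = 0.622). The unstimulated call was lost under 11 alternatives. These were no filter (adjusted p = 0.055), quantile normalization (0.0527), no trend (0.113), the compared libraries alone (0.178) and leaving out wild-type unstimulated replicate 2 (adjusted p = 0.188), Trpm5-/- unstimulated replicate 1 (0.156) or 2 (0.134), wild-type LPS replicate 1 (0.0563) or 2 (0.0565), and Trpm5-/- anti-IgM replicate 1 (0.0555) or 2 (0.0556). The anti-IgM call was lost without wild-type replicate 2 (0.101) or Trpm5-/- replicate 2 (0.0975), without the mean-variance trend (0.0544) and when only the 4 anti-IgM libraries were fitted (0.0668).

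Xbp1 (chromosome 11, 5520659 to 5525893, plus strand), the transcription factor of the secretory and unfolded protein programmes, followed Mzb1 in part. Gene-level values do not separate its spliced, active form from the unspliced one. It stood at 74.2 and 69.8 FPKM in unstimulated wild-type and 90.8 and 90.4 FPKM in unstimulated Trpm5-/- cells, a rise of 0.33 ± 0.06 (adjusted p = 0.00968). This call was lost without wild-type unstimulated replicate 2 (adjusted p = 0.061), Trpm5-/- replicate 1 (0.0607) or Trpm5-/- replicate 2 (0.0529), and in a fit of the 4 unstimulated libraries alone (0.109). With LPS the values were 53.9 and 55.9 against 58.5 and 57.0 FPKM, and with anti-IgM 103 and 106 against 119 and 124 FPKM. Neither difference was called (0.07 ± 0.06, adjusted p = 0.581, and 0.21 ± 0.06, adjusted p = 0.0648), although the libraries did not overlap.

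Prdm1 (chromosome 10, 44437177 to 44528501, minus strand), the gene for BLIMP1, was not called between genotypes in any condition. Its values were 7.16 and 8.10 FPKM in wild-type against 10.8 and 9.66 FPKM in Trpm5-/- cells without stimulus. They were 3.74 and 5.29 against 5.51 and 6.59 FPKM with LPS, and 7.64 and 8.24 against 8.90 and 8.13 FPKM with anti-IgM. The genotypes did not overlap in the first 2 conditions and overlapped with anti-IgM. The differences were 0.38 ± 0.15 (adjusted p = 0.196), 0.36 ± 0.15 (adjusted p = 0.269) and 0.09 ± 0.15 (adjusted p = 0.808), and their average was 0.28 ± 0.09 (95% interval 0.08 to 0.48, adjusted p = 0.0621). That average was called with quantile normalization (0.048) and without wild-type LPS replicate 2 (adjusted p = 0.0243).

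Ell2 and Sdc1, on the plasma cell side as well, were not called between genotypes either. Ell2 (chromosome 13, 75706757 to 75772364, plus strand), an elongation factor that favours the secreted form of immunoglobulin mRNA, ranged only from 13.5 to 17.1 FPKM over all 12 libraries. Its average genotype difference was 0.05 ± 0.05 (95% interval -0.06 to 0.15, adjusted p = 0.573). Sdc1 (chromosome 12, 8771323 to 8793715, plus strand), the surface proteoglycan CD138 by which plasma cells are sorted, stood at 17.0 and 19.7 against 14.8 and 14.1 FPKM without stimulus and at 6.96 and 7.24 against 4.10 and 4.74 FPKM with anti-IgM. Knockout libraries were the lower ones in both conditions, opposite to Jchain. The differences were -0.32 ± 0.19 (adjusted p = 0.399) and -0.58 ± 0.19 (95% interval -1.01 to -0.15, adjusted p = 0.129). The average of -0.36 ± 0.11 (adjusted p = 0.0559) passed the threshold once wild-type LPS replicate 1 was left out (adjusted p = 0.0386), or Trpm5-/- LPS replicate 1 (0.0186).

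Bcl6 (chromosome 16, 23965052 to 23988852, minus strand) had the largest genotype difference on the B cell side. The unstimulated level was 18.7 and 20.95 FPKM in wild-type against 14.2 and 14.8 FPKM in Trpm5-/- cells. After LPS it was 25.5 and 28.9 against 14.3 and 13.5 FPKM, and after anti-IgM 9.80 and 11.1 against 7.87 and 6.70 FPKM. Every knockout library was below every wild-type library of its condition. Bcl6 fell by 0.91 ± 0.11 under LPS (adjusted p = 0.00196), to 0.512 of the wild-type mean. That call held under 19 of 20 alternatives, and was lost in a fit of the 4 LPS libraries alone (adjusted p = 0.0734). The difference with anti-IgM was -0.47 ± 0.11 and passed the threshold narrowly (adjusted p = 0.0496). This call was lost under 17 of 20 alternatives. It was lost without any 1 of the 12 libraries (differences of -0.57 to -0.37) and with the replicate number as a block (adjusted p = 0.06). Quantile normalization (0.0631), no filter (0.0756), no mean-variance trend (0.0671) and a fit of the 4 anti-IgM libraries alone (0.171) lost it too. Without stimulus the difference of -0.42 ± 0.11 was not called (adjusted p = 0.0567), except with a mean of at least 5 FPKM (0.0437) and with quantile normalization (0.0237). The average over conditions, -0.60 ± 0.06 (adjusted p = 0.000238), was called under every alternative run.

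Pax5 and Bach2 also had lower means in Trpm5-/- cells in each condition. Pax5 (chromosome 4, 44524757 to 44710487, minus strand) stood at 9.40 and 10.1 against 7.21 and 8.63 FPKM without stimulus, 10.9 and 9.02 against 7.48 and 6.58 FPKM with LPS, and 4.56 and 3.12 against 2.97 and 2.60 FPKM with anti-IgM. The genotypes did not overlap in any condition. None of the 3 differences was called (adjusted p 0.209 to 0.404), but the average was (-0.35 ± 0.10, adjusted p = 0.034). It lost the call under 10 alternatives, including the omission of wild-type unstimulated replicate 1 (adjusted p = 0.0555) or 2 (0.0793), wild-type LPS replicate 1 (0.0897), wild-type anti-IgM replicate 1 (0.0768), Trpm5-/- unstimulated replicate 1 (0.0871), Trpm5-/- LPS replicate 2 (0.0755) and Trpm5-/- anti-IgM replicate 1 (0.0531) or 2 (0.083). Bach2 (chromosome 4, 32238804 to 32586108, plus strand) stood at 26.5 and 26.2 against 23.0 and 21.7 FPKM without stimulus and at 22.7 and 22.4 against 18.9 and 21.5 FPKM with anti-IgM, the knockout libraries lower in both. Its average difference was -0.18 ± 0.06 (adjusted p = 0.0762), called only without wild-type LPS replicate 1 (adjusted p = 0.0401).

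**Figure D2:**
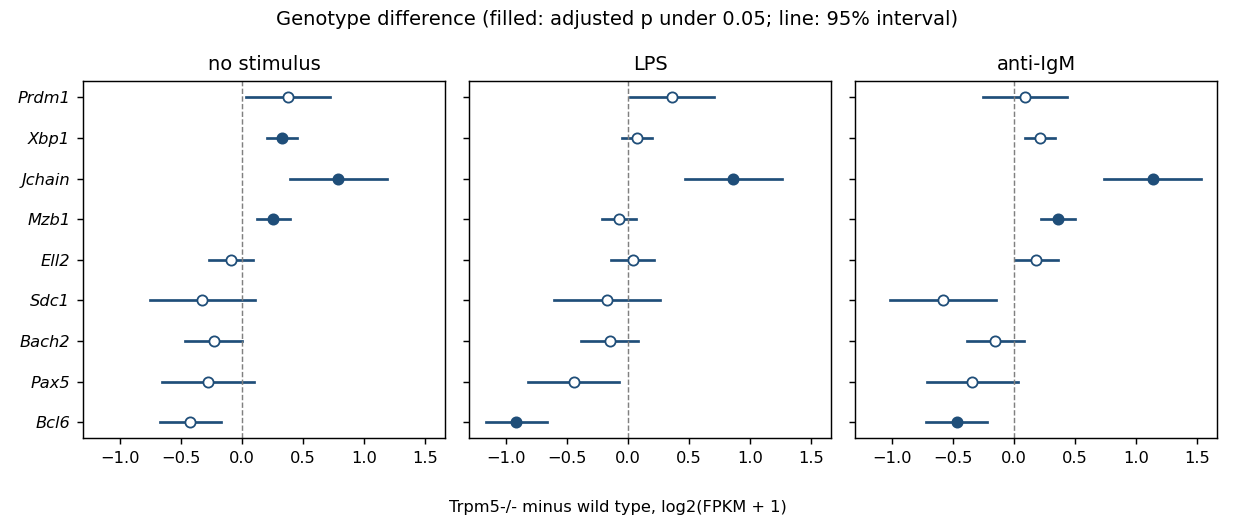
Genotype difference of each gene (x axis, Trpm5-/- minus wild type in log2(FPKM + 1)) without stimulus, with LPS and with anti-IgM; points are estimates, filled where the adjusted p is under 0.05, and lines 95% intervals. Jchain is filled in all 3 panels and Bcl6 in the LPS and anti-IgM panels.

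Other genes moved with genotype in the same libraries. The summed level of 7 erythroid markers, mostly haemoglobin genes, was lower in the knockout. It came to 684 to 710 FPKM in unstimulated wild-type and 472 to 510 FPKM in unstimulated Trpm5-/- cells, 454 to 538 against 276 to 277 FPKM with LPS, and 379 to 521 against 249 to 307 FPKM with anti-IgM. None of the 7 was at 0 in both libraries of a group, and 0, 2, 1 and 3 were called lower without stimulus, with LPS, with anti-IgM and in the average, against 1.66%, 1.78%, 1.92% and 5.88% of all genes. In bulk RNA, fewer cells of a type and less RNA per cell cannot be told apart. The part of these markers in the differences above was not tested. Among 17 cell cycle genes 14 were called higher and 0 lower in the average over conditions, with a median of 0.42 against 0.01 for all genes tested, of which 10.2% were called higher and 5.88% lower. They included Top2a, which untangles DNA, at 0.78 ± 0.13 without stimulus and 0.84 ± 0.13 with anti-IgM. The summed level of 10 marginal zone markers without stimulus was 642 to 668 FPKM in wild-type and 856 to 876 FPKM in Trpm5-/- cells. Most of that gap lay in Cd9, a tetraspanin, at 269 and 284 against 470 and 472 FPKM. S1pr3, Dtx1, Cd36 and Plxnd1 were also higher without overlap, for example Cd36 at 60.0 and 56.7 against 73.4 and 74.9 FPKM. S1pr1, a sphingosine phosphate receptor, went the other way, at 186 and 185 against 167 and 170 FPKM, as did Asb2. Cr2, a complement receptor, overlapped, at 33.9 and 37.5 against 35.1 and 39.5 FPKM, as did Cd1d1 and Tm6sf1. The sum of 6 follicular B cell markers was lower, at 1056 to 1068 against 795 to 825 FPKM; this list holds Fcer2a and Klf2, which are also in lists described further on. The sum of 6 markers of all B cells, mostly Cd74, was lower too: 19980 to 20030 against 16530 to 16710 FPKM without stimulus, 14710 to 15440 against 11490 to 11960 FPKM with LPS and 15960 to 15970 against 12050 to 12240 FPKM with anti-IgM. The nuclear transcripts Malat1 and Neat1, read as signs of RNA quality, moved with genotype and with stimulus. Together they came to 389 to 432 against 298 to 305 FPKM without stimulus, 142 to 168 against 136 to 153 FPKM with LPS, and 258 to 294 against 204 to 213 FPKM with anti-IgM. The part of the cell cycle, B cell and nuclear genes in the members' differences was not tested either.

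LPS lowered most of the plasma cell genes within 4 h, and it lowered Bach2 as well. Sdc1, Mzb1, Xbp1, Prdm1, Jchain and Bach2 fell in both genotypes, and Bcl6 rose in wild-type cells. In wild-type cells 7 of 9 members were called, 1 higher and 6 lower, against 69.4% of all genes (35% higher and 34.4% lower). In Trpm5-/- cells 6 were called, all lower, against 68.7% of all genes (34.8% higher and 33.8% lower). Most genes thus passed the test, and the number of members called in either direction lies near that background. The 6 of 9 called lower in each genotype are a larger share than the 34.4% and 33.8% of all genes. That difference in share was not tested. The LPS and the anti-IgM response of a genotype share the same unstimulated libraries.

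Sdc1 had the largest response of the 9. From the unstimulated levels given above it went to 1.27 and 2.01 FPKM in wild-type and 1.80 and 0.934 FPKM in Trpm5-/- cells with LPS. The ratios of means were 0.0895 and 0.0945, and the differences -2.88 ± 0.19 (adjusted p = 3.23e-07) and -2.73 ± 0.19 (adjusted p = 5.13e-07). The stimulated libraries of the 2 genotypes overlapped. Mzb1 went to 0.285 and 0.226 of its unstimulated mean (-1.80 ± 0.06 and -2.14 ± 0.06), and Bach2 to 0.275 and 0.287. Bach2 read 6.54 and 7.95 FPKM in wild-type and 6.69 and 6.16 FPKM in Trpm5-/- cells with LPS, which overlapped, and its differences were -1.74 ± 0.10 and -1.65 ± 0.10. The adjusted p of each of these Mzb1 and Bach2 differences was at most 2.14e-07.

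The falls of Prdm1, Xbp1 and Jchain with LPS were smaller. Prdm1 changed by -0.66 ± 0.15 in wild-type (adjusted p = 0.00326, but 0.115 with quantile normalization) and by -0.67 ± 0.15 in Trpm5-/- cells (adjusted p = 0.00282). Xbp1 changed by -0.38 ± 0.06 and -0.64 ± 0.06 (adjusted p = 0.000112 and 2.22e-06). Jchain changed by -0.63 ± 0.18 (adjusted p = 0.00919) and -0.56 ± 0.18 (adjusted p = 0.0176). The Jchain call was lost in wild-type cells without unstimulated replicate 2 (0.0715) or LPS replicate 2 (0.066), and in Trpm5-/- cells without unstimulated replicate 2 (0.171) or LPS replicate 1 (0.124). Ell2 was not called in either genotype (0.06 ± 0.08 and 0.19 ± 0.08, adjusted p = 0.543 and 0.063; the Trpm5-/- value was called under 4 alternatives).

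On the B cell side the 3 transcription factors differed in their LPS calls. While Bach2 fell, Pax5 was not called (0.02 ± 0.17 in wild-type and -0.15 ± 0.17 in Trpm5-/- cells, adjusted p = 0.93 and 0.453). Bcl6 rose by 0.44 ± 0.11 in wild-type cells (adjusted p = 0.00543, and 0.0505 without wild-type LPS replicate 2). In Trpm5-/- cells it changed by -0.06 ± 0.11 (95% interval -0.31 to 0.19, adjusted p = 0.668), with overlapping libraries; quantile normalization turned this to 0.04. The difference between the 2 responses was -0.49 ± 0.16 and was not called (adjusted p = 0.33, unadjusted p = 0.0109).

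**Figure D3:**
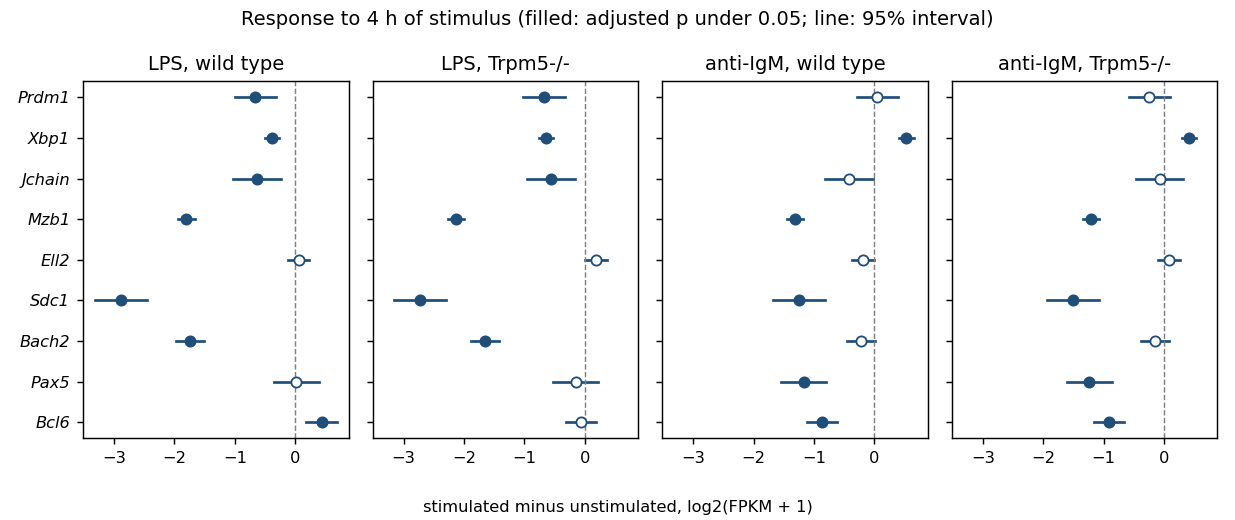
Response of each gene (x axis, stimulated minus unstimulated in log2(FPKM + 1)) to each stimulus in wild-type and Trpm5-/- cells; points are estimates, filled where the adjusted p is under 0.05, and lines 95% intervals. Sdc1, Mzb1 and Bach2 lie at the left with LPS; with anti-IgM Bach2 lies near 0 and Xbp1 at the right.

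Anti-IgM gave another pattern over the same genes. In each genotype 5 of 9 members were called, 1 higher and 4 lower, against 48.6% of all genes in wild-type (27.7% higher and 20.9% lower) and 49.9% in Trpm5-/- cells (26.9% and 23%). Xbp1 rose by 0.53 ± 0.06 and 0.42 ± 0.06 (adjusted p = 2.11e-05 and 0.000125). Sdc1 fell in both, with differences of -1.25 ± 0.19 and -1.51 ± 0.19 (adjusted p = 0.00038 and 0.000102), and Mzb1 fell by 1.31 ± 0.06 and 1.21 ± 0.06 (adjusted p = 1.07e-07 and 1.87e-07). Pax5 and Bcl6 fell as well. Pax5 fell by 1.17 ± 0.17 and 1.23 ± 0.17 (adjusted p = 0.000231 and 0.00016), to 0.393 and 0.352 of its unstimulated mean. Bcl6 fell by 0.86 ± 0.11 and 0.91 ± 0.11 (adjusted p = 0.000115 and 7.8e-05). All 5 calls in each genotype held under every alternative run.

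Prdm1 and Bach2 showed little response to anti-IgM. Prdm1 changed by 0.05 ± 0.15 in wild-type (95% interval -0.29 to 0.40, adjusted p = 0.814) and by -0.24 ± 0.15 in Trpm5-/- cells (-0.58 to 0.11, adjusted p = 0.227). Bach2 changed by -0.22 ± 0.10 and -0.14 ± 0.10 (adjusted p = 0.115 and 0.292; with quantile normalization it was called in wild-type cells, 0.0292). Jchain was not called (-0.42 ± 0.18 in wild-type, adjusted p = 0.077, and -0.07 ± 0.18 in Trpm5-/- cells, adjusted p = 0.767). The wild-type value of Jchain was called without Trpm5-/- unstimulated replicate 1 (0.0359) or 2 (0.0363).

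Set directly against each other, LPS and anti-IgM separated 8 of the 9 members in each genotype, against 52.7% of all genes in wild-type (27.7% higher and 25% lower with LPS) and 51.9% in Trpm5-/- cells (28.3% and 23.6%). In wild-type cells Bcl6 and Pax5 were higher with LPS, by 1.30 ± 0.11 (adjusted p = 6.08e-06) and 1.19 ± 0.17 (adjusted p = 0.000196), about 2.60 and 2.59 times the anti-IgM mean. Bach2 was lower with LPS by 1.52 ± 0.10 (adjusted p = 1.27e-06) and Sdc1 by 1.63 ± 0.19 (adjusted p = 5.74e-05). Xbp1 was lower by 0.92 ± 0.06 (adjusted p = 4.89e-07) and Prdm1 by 0.71 ± 0.15 (adjusted p = 0.00319). Mzb1 was lower too, with a difference of -0.49 ± 0.06 (limma adjusted p = 8.67e-05). In Trpm5-/- cells that of Mzb1 was -0.93 ± 0.06 (limma adjusted p = 9.74e-07). Ell2, higher with LPS by 0.24 ± 0.08 (adjusted p = 0.0263), lost its call when any 1 of the 4 stimulated wild-type libraries was left out (adjusted p 0.0674 to 0.106). In Trpm5-/- cells Bcl6, Pax5, Bach2, Sdc1, Xbp1 and Prdm1 had the same directions and were called too. The Prdm1 call (-0.44 ± 0.15, limma adjusted p = 0.0374) was lost with quantile normalization (0.147) and without the low-value filter (0.0655). A fit of the compared libraries alone lost it too (0.0633). It was also lost without LPS replicate 1 (difference -0.33), anti-IgM replicate 1 (-0.38) or anti-IgM replicate 2 (-0.49). Jchain, the member called in Trpm5-/- but not in wild-type cells (-0.48 ± 0.18, adjusted p = 0.0429), lost it in 6 alternatives, including without Trpm5-/- LPS replicate 1 (0.233), Trpm5-/- anti-IgM replicate 1 (0.23) or wild-type anti-IgM replicate 1 (0.0562) or 2 (0.0562).

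The responses of the 2 genotypes were not called different for any member. For the interaction of genotype with LPS, limma called 0 of 9 (3 at an unadjusted p under 0.05), against 0.102% of all genes. For the interaction with anti-IgM it called 0 of 9 (1 at an unadjusted p under 0.05), against 0.0278%. The 3 with LPS were Mzb1 (-0.33 ± 0.09, adjusted p = 0.257), Xbp1 (-0.26 ± 0.08, adjusted p = 0.319) and Bcl6. The intervals leave room for sizeable differences, for example -0.49 to 0.64 for the LPS response of Jchain.

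The 6 groups were ordered by mean level for Prdm1, Bcl6 and Jchain. Prdm1 went from unstimulated Trpm5-/- cells (10.2 FPKM) through Trpm5-/- with anti-IgM (8.51), wild-type with anti-IgM (7.94), unstimulated wild-type (7.63) and Trpm5-/- with LPS (6.05) to wild-type with LPS (4.52 FPKM). Trpm5-/- with anti-IgM overlapped wild-type with anti-IgM, and that overlapped unstimulated wild-type. Bcl6 went from wild-type with LPS (27.2 FPKM) and unstimulated wild-type (19.8) to unstimulated Trpm5-/- (14.5), Trpm5-/- with LPS (13.9), wild-type with anti-IgM (10.5) and Trpm5-/- with anti-IgM (7.29 FPKM). Of neighbours in this order, only the unstimulated and LPS groups of Trpm5-/- cells overlapped. Jchain had the 3 knockout groups first, unstimulated (40.9 FPKM), with anti-IgM (38.4) and with LPS (27.2), then wild-type unstimulated (22.9), with anti-IgM (16.9) and with LPS (14.4 FPKM). There the unstimulated and anti-IgM groups of the knockout overlapped, as did Trpm5-/- with LPS and unstimulated wild-type.

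The genes most like a member were sought over the 6 group means of log2(FPKM + 1), each centred on its own mean, among 7871 genes averaging at least 5 FPKM. The measure was the root mean square difference, which is 0 for identical patterns. For Prdm1 the nearest were Phc2 (0.06), Flywch1 (0.06) and Aldh9a1 (0.07), against a spread of 0.33 of Prdm1 itself. For Bach2, with a spread of 0.77, they were Ilvbl (0.08), Snx2 (0.09) and Ccni (0.09). Jchain (spread 0.53) had no close match: Ctnna1 was at 0.15 and the cell cycle genes Top2a and Gmnn at 0.21 and 0.21. The nearest to Bcl6 (spread 0.57) were Lst1 (0.14), Cd81 (0.20) and then Pax5 (0.20), another of the 9 genes.

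Around the 9 genes, 7 lists of related genes, also chosen with earlier results of these data known, were read in the same fit. B cell identity regulators fell in 13 of 18 cases in both responses of both genotypes and rose in 2 or 3, with medians of -0.73 (LPS, wild-type), -0.74 (LPS, Trpm5-/-), -0.81 (anti-IgM, wild-type) and -0.97 (anti-IgM, Trpm5-/-). The medians of all genes tested lay between -0.02 and 0.02, and 34.4%, 33.8%, 20.9% and 23% of all genes were called lower. In wild-type cells with LPS the strongest were Ets1, an ETS factor that restrains plasma cell formation (-3.06 ± 0.07), Id3, an inhibitor of E proteins (-3.12 ± 0.07), and Klf2, which controls B cell positioning (-2.98 ± 0.12). The genes that PAX5 activates fell in 6 of 12 cases with LPS in wild-type cells (median -0.39, and -0.87 with quantile normalization) and rose in 4. Fcer2a, the IgE receptor CD23, rose from 133 to 930 FPKM there, while Cd22, an inhibitory co-receptor, fell from 93.5 to 14.2 FPKM.

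Of other regulators and surface proteins of plasma cells, LPS left 6 of 17 higher and 8 lower in wild-type (median 0.03, -0.25 with quantile normalization) and 6 and 6 in Trpm5-/- cells (median -0.07, 0.07 with quantile normalization). Of all genes 35% were called higher and 34.4% lower in wild-type, and 34.8% and 33.8% in Trpm5-/- cells, so the list lies near the background. Irf4, a factor that plasma cell formation requires, rose from 36.5 to 215 FPKM with LPS (2.52 ± 0.06, adjusted p = 7.03e-10) and to 138 FPKM with anti-IgM (1.89 ± 0.06) in wild-type cells, so it moved against Prdm1 with LPS. Pou2af1, a B cell coactivator, fell by 2.11 ± 0.06 with LPS. Genes of the secretory pathway and its chaperones rose with anti-IgM in 17 of 24 cases in wild-type (2 fell, median 0.51) and 15 of 24 in Trpm5-/- cells (2 fell, median 0.47); 27.7% and 26.9% of all genes were called higher. With LPS 16 rose and 5 fell in wild-type cells (median 0.28). Quantile normalization turned that median to -0.08, with 6 rises and 11 falls. Hspa5 (BiP), the main chaperone of the endoplasmic reticulum, rose by 1.40 ± 0.05 with LPS and 1.23 ± 0.05 with anti-IgM, while Sec11c, of the signal peptidase, fell by 1.23 ± 0.07 and 1.32 ± 0.07.

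**Figure D4:**
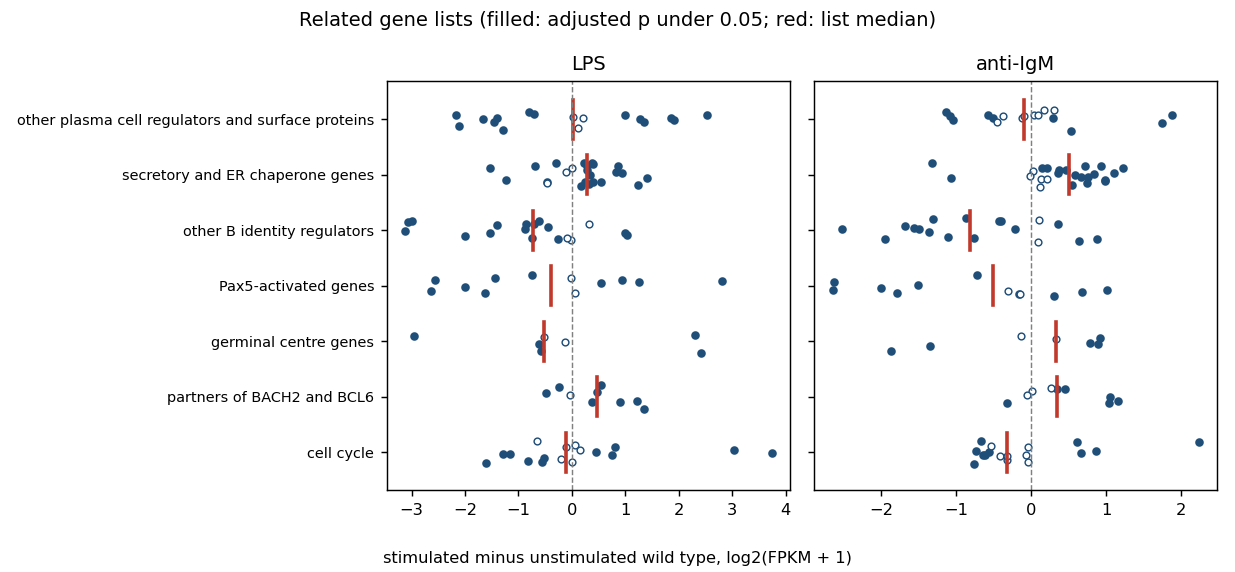
Response of each gene of 7 related lists in wild-type cells to LPS and to anti-IgM (x axis, log2(FPKM + 1) difference; points are genes, filled where the adjusted p is under 0.05, red bars list medians). The B identity list has medians of -0.73 and -0.81, and the secretory list of 0.28 and 0.51.

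Partners of BACH2 and BCL6, together with Hmox1, a known target of BACH factors, rose in 6 of 9 cases with LPS in both genotypes (median 0.47 in wild-type and 0.45 in Trpm5-/- cells, against -0.02 for all genes in both), and fell in 2 and 0. The same shares of all genes, 35% higher and 34.4% lower in wild-type and 34.8% and 33.8% in Trpm5-/- cells, apply here. The small Maf protein gene Mafk, whose product pairs with BACH2, rose by 1.21 ± 0.07 with LPS and 1.15 ± 0.07 with anti-IgM in wild-type cells. Of 10 germinal centre genes 7 were tested, and with LPS 2 rose and 3 fell in wild-type cells (1 fell with quantile normalization), again against 35% and 34.4% of all genes.

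Between genotypes, the PAX5-activated genes had 0 higher and 4 lower members of 12 in each condition (1.66%, 1.78% and 1.92% of all genes were called lower without stimulus, with LPS and with anti-IgM), and 0 and 8 in the average (median -0.25 against 0.01 for all genes; 5.88% of all genes were called lower in the average). Fcer2a was lower in each condition, by -0.64 ± 0.08, -0.74 ± 0.08 and -1.07 ± 0.08. Ciita, the MHC class II activator, stood at -0.48 ± 0.11 without stimulus. The B identity regulators split: Spib, an ETS factor, rose in each condition (1.41 ± 0.06, 0.91 ± 0.06 and 0.94 ± 0.06) and Mef2c fell with LPS (-0.67 ± 0.08) and anti-IgM (-0.56 ± 0.08). Averaged over conditions, 1 of the 18 was called higher and 4 lower. On the plasma cell side, 5 of 17 regulators were called higher and 2 lower in the average (median 0.10), and 8 of 24 secretory genes higher and 2 lower (median 0.14); 10.2% of all genes were called higher. Irf4 was higher in unstimulated Trpm5-/- cells (49.6 against 36.5 FPKM, 0.43 ± 0.06, adjusted p = 0.00622), and Pdia6, a disulfide isomerase, in all 3 conditions (0.52 ± 0.05, 0.38 ± 0.05 and 0.29 ± 0.05). Germinal centre genes had 3 of 7 members lower in the average and 2 with quantile normalization; they included Rgs13, a brake on G protein signals, at -0.71 ± 0.15 without stimulus. Hmox1 rose in each condition (0.88 ± 0.11, 0.93 ± 0.11 and 0.88 ± 0.11). Of the genes for BACH factors, neither Bach1 (0.26 ± 0.09 in the average, limma adjusted p = 0.0894) nor Bach2 was called. A link between these genes was not tested. The 12 immunoglobulin constant-region symbols of a further list were not analysed here.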

How the data were processed

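RNA was sequenced from 12 libraries of mouse marginal zone B cells in 6 groups of 2, grouped by their titles. Per the submitters' processing notes, the authors' programs were Cufflinks 2.2.1, TopHat2 2.0.13, Bowtie2 2.2.3 and SAMtools 0.1.19, with reads placed on mm10; the sources used here name no annotation and no counting settings. The deposited values are taken as FPKM from their behaviour and from Cufflinks, since the file headers do not name the unit. Libraries were already on a common scale (median ratios 0.995 to 1.02), so none was rescaled. FPKM hides read depth; fragments were estimated from the smallest steps. Values were tested as log2(FPKM + 1) for genes reaching 1 FPKM in 2 or more libraries by limma 3.58.1 (R 4.3.3; group means, eBayes with trend, 6 residual degrees of freedom, 2-sided, Benjamini-Hochberg over 10797 genes, 12 comparisons) and the model was tested on simulated data. All 9 members passed the filter. From each list the 3 genes of smallest p in a comparison could be named. Positions are GENCODE M21. Members and lists were chosen with earlier results of these data known, and no list was tested as a set. Alternatives were a pseudocount of 0.1, no filter, a mean of at least 5 FPKM, 2 scalings, a replicate block, fits of the compared libraries alone, no trend, and leaving out each library.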

Additional observations from a re-analysis of the deposited data

Results flagged for a closer look

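Mzb1 moved in opposite ways between genotypes in different conditions, every Trpm5-/- library lying above every wild-type library without stimulus (0.26) and below it with LPS (-0.07). The difference of the 2 effects was -0.33 (limma adjusted p = 0.257, not called). Between LPS (-0.07) and anti-IgM (0.36) the effects of Mzb1 differed by 0.44; this difference was not tested. Ell2 did the same between no stimulus (-0.09) and LPS (0.04), a difference of 0.13 (adjusted p = 0.749, not called), and between no stimulus and anti-IgM (0.18), a difference of 0.27 (adjusted p = 0.594, not called). The same 0.27 is the difference between the anti-IgM responses of Ell2 in wild-type (-0.19) and Trpm5-/- cells (0.09).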

How the results depend on the processing

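Of 2151 values under 20 alternatives for the 9 genes, 2014 kept their direction and their side of the threshold, 88 lost a call, 17 gained one and 32 changed sign. Without a filter on low values 1 member was called between genotypes without stimulus and 1 with LPS; without the mean-variance trend the numbers were 1, 1 and 1 (no stimulus, LPS, anti-IgM); in fits of the compared libraries alone 0, 0 and 1; and with quantile normalization 1 with LPS. Leaving out each library gave 0 to 3 without stimulus, 1 to 2 with LPS, 0 to 2 with anti-IgM and 4 to 6 in the average; a lone library was assumed to vary like the other groups. Over all genes, the counts of 660, 388 and 413 fell to as low as 51, 21 and 116 under the settings other than leaving out a library, and to 159, 158 and 119 when leaving one out. The causes were not tested; the fits of the compared libraries alone have fewer libraries.

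Sign changes fell on values that had not passed the threshold. Median-ratio scaling gave -0.0026 for the LPS response of Pax5 in wild-type cells, and quantile normalization 0.1473 for Pax5 and 0.0421 for Bcl6 in Trpm5-/- cells. For the interaction with LPS, a pseudocount of 0.1 gave 0.0092 for Prdm1 and quantile normalization -0.0635 for Jchain. For that with anti-IgM, quantile normalization gave 0.0408 for Pax5 and 0.0778 for Bcl6. Leaving out libraries moved the genotype difference of Sdc1 with LPS between -0.4359 and 0.0963, and the LPS response of Pax5 in wild-type cells between -0.1031 and 0.1403. It moved the anti-IgM response of Prdm1 in wild-type cells between -0.0275 and 0.1304, and that of Jchain in Trpm5-/- cells between -0.3351 and 0.1911. The interactions with LPS ran from -0.2209 to 0.187 (Prdm1), -0.1881 to 0.3381 (Jchain), -0.1135 to 0.4188 (Sdc1) and -0.0409 to 0.2055 (Bach2). Those with anti-IgM ran from -0.0109 to 0.1614 (Bach2), -0.279 to 0.1526 (Pax5) and -0.1521 to 0.0534 (Bcl6). No member was called in an interaction under any alternative.

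Libraries of the same replicate number showed little shared deviation (median correlation 0.0366 over 15 pairs of groups, -0.172 to 0.199, 3 above 0.1). With 2 libraries per group, that cannot tell whether same-numbered libraries share an animal or a day. With the replicate number as a block, the anti-IgM genotype difference of Bcl6 had an adjusted p of 0.06. Depth limits Sdc1 with LPS, where about 21 fragments lie behind 1 library.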
